A study of Mus musculus with 8 samples.

Results

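The levels of 9 genes of bone morphogenetic protein (BMP) signalling were read in mouse intestine and intestinal organoids: the ligands Bmp2, Bmp3, Bmp4, Bmp5 and Bmp7, the secreted antagonists Grem1, Nog and Chrdl1, and the receptor Bmpr1a. The members were chosen by gene symbol, and each of the 9 matched 1 of the 32285 genes in every one of the 8 libraries. BMP ligands are secreted proteins of the TGF-beta superfamily that bind paired type I and type II receptors, after which SMAD1, SMAD5 and SMAD9 are phosphorylated and, with SMAD4, switch on targets such as the Id genes. Gremlin 1, noggin and chordin-like proteins bind the ligands outside the cell and keep them from the receptors. In the intestine, BMP signalling is known to be strong toward the luminal surface, where cells differentiate, and to be held low around the stem cells at the crypt base by antagonists from the tissue beneath.

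All libraries were labelled C57BL/6, and ages and sexes were not given. The first 4 libraries were single-cell libraries made on the 10x platform. The organoid libraries came from small intestinal epithelium grown in culture at passage 1, 1 labelled CTRL and 1 labelled COCULTURE, a partner cell not being named for the latter. Each was made from 16 pooled wells, from which 100000 epithelial cells were sorted. The tissue libraries, 1 of small and 1 of large intestine, each held 50000 sorted live cells enriched with 50000 LGR5+ stem cells and 20000 to 25000 CD31+ PDPN+ LYVE1+ lymphatic endothelial cells. Sorting used C57BL/6 and Lgr5-eGFP-ires-CreERT2 mice on that background, and the labels did not give which library held which. A GFP feature was among the 10 leading genes of the small intestinal stem-like cluster. Class sizes therefore describe the sort, not the tissue. The remaining 4 libraries were Visium spatial sections, 10 µm thick, with 2 technical duplicates of each intestine.

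Each organoid condition and each sorted tissue was 1 library, and the sections were technical duplicates, so no test between groups could be made. Levels are unique molecular identifiers (UMIs, counted molecules) given in the usual CPM unit, a gene's UMIs scaled to a fixed total for its class, with exact Poisson 95% intervals that cover counting error only. After filtering, 538 control and 1028 coculture organoid cells, 2695 small and 5882 large intestinal cells and 2094 to 2571 spots per section were used. In the small intestinal library, 5497 of 8842 barcodes were over the limit on mitochondrial transcripts. The organoid libraries shared 0 cell barcodes and the tissue libraries 25. Cells were clustered without the 9 genes and named after marker lists, as in fibroblast-like. The small intestinal class of 56 smooth muscle or pericyte-like cells was led by Tagln, Acta2 and Myh11 but also carried the fibroblast gene Adamdec1 at 6749 CPM and Dcn at 6565 CPM. The small intestinal class called colonocyte-like, 70 cells led by Pla2g4c, Gsdmc2 and Gsdmc4, went by its markers against its tissue. In the large intestine, the 1 stem-like cluster had none of its markers among its leading genes. Its mean log2 marker ratio over the stem list was 0.59. Cluster 2 there, 431 cells, had 1.19 for that list but was left unnamed because the erythroid list led as well. Unnamed cells were 2183 of the 5882 large intestinal cells (37.1%) and 226 of the 2695 small intestinal cells (8.39%). Comparisons of named classes leave these cells out.

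The promoters of 3 members read in the stroma are shown because the stromal results turn on them: Bmp4 and Bmp5, ligands read together in some mesenchymal clusters, and Grem1, an antagonist whose levels over those clusters were ordered differently. They are the 250 bases upstream of the annotated start, from RefSeq on GRCm38.p6, read 5′ to 3′ on the gene's strand. Bmp4 lies at chr14:46383525-46390669 and its promoter at chr14:46390670-46390919 on the minus strand. Bmp5 lies at chr9:75775365-75900316 and its promoter at chr9:75775115-75775364 on the plus strand. Grem1 lies at chr2:113748675-113758648 and its promoter at chr2:113758649-113758898 on the minus strand. The other members lie at chr2:133552159-133562896 (Bmp2), chr5:98854415-98884053 (Bmp3), chr2:172868012-172940321 (Bmp7), chr11:89300638-89302559 (Nog), chrX:143285674-143394263 (Chrdl1) and chr14:34411061-34503336 (Bmpr1a). Capitals mark a match to a SMAD motif.
Bmp4: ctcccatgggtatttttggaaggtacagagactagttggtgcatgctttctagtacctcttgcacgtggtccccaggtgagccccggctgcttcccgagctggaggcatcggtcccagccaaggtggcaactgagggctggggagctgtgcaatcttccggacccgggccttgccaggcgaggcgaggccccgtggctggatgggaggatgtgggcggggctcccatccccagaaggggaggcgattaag
Bmp5: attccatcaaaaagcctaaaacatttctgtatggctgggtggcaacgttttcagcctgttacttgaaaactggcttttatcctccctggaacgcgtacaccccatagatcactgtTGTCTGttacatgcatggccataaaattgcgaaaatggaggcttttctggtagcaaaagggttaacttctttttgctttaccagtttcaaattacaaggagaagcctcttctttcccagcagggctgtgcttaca
Grem1: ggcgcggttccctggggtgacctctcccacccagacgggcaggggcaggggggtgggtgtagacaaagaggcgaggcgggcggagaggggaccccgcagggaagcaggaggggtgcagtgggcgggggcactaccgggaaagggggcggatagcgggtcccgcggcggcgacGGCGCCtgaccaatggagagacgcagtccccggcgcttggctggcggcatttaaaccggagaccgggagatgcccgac
The motifs searched on both strands were TGTTTAC for FOX factors, TATAAA for the TATA box, GGCGCC and CAGACA for SMADs, and GACCACCCA for GLI. The Grem1 window held GGCGCC 78 bases upstream of the start, and 9.59% of 32851 mouse promoters of that length held this motif. The Bmp5 window held CAGACA on the opposite strand 135 bases upstream, as did 17.1% of promoters. The Bmp4 window held none of the 5. TGTTTAC was in 3.17%, TATAAA in 12.4% and GACCACCCA in 0.225% of promoters, and in none of the 3 windows. The windows differed in base composition, with 63.2% G and C for Bmp4, 42.8% for Bmp5 and 72% for Grem1. These matches describe letters only. Of the 9 members, 4 had an entry in the promoter table.

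Bmp4, a ligand of intestinal mesenchyme, was read almost entirely outside the epithelium. Its small intestinal level was 229 CPM (185–281, 92 UMIs) in smooth muscle or pericyte-like cells and 133 CPM (91.1–188, 32 UMIs) in fibroblast-like cells. Blood endothelial-like cells had 2 UMIs, lymphatic endothelial-like cells had 5.43 CPM from 6 UMIs, and no epithelial class was above 0.635 CPM. Large intestinal fibroblast-like cells had 150 CPM (135–167, 345 UMIs) and smooth muscle or pericyte-like cells 128 CPM (103–157, 93 UMIs). The difference between these stromal neighbours was 0.23 on the log2 scale, with an interval of -0.10 to 0.58. The large intestinal stem-like and colonocyte-like cells had 0 Bmp4 UMIs.

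Bmp5 was narrower. Of its 38 small intestinal UMIs, 34 fell in the smooth muscle or pericyte-like cells (84.7 CPM, 58.7–118), 4 fell in lymphatic endothelial-like cells, and every other named class had 0. Large intestinal smooth muscle or pericyte-like cells had 118 CPM (94.7–146, 86 UMIs), fibroblast-like cells 48.4 CPM (39.8–58.3, 111 UMIs), and the other named classes at most 2.76 CPM. Among the named classes, both libraries thus had Bmp5 highest in smooth muscle or pericyte-like cells, a class that in the small intestine mixed muscle and fibroblast genes. Unnamed cluster 27 of the large intestine, described below, was higher at 673 CPM. Small intestinal fibroblast-like cells had 0 UMIs for Bmp5 beside 32 for Bmp4.

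Bmp2, known as a ligand of differentiated epithelium and of the mesenchyme next to it, was read on both sides. Among the named classes, smooth muscle or pericyte-like cells had the highest level in each library, with 107 CPM (77.5–144, 43 UMIs) in small and 127 CPM (102–155, 92 UMIs) in large intestine. Among small intestinal epithelial classes, tuft-like cells, rare chemosensory cells, were highest with 62.8 CPM (51.1–76.5, 99 UMIs). Goblet-like cells followed with 22.3 CPM, colonocyte-like cells with 13.2 CPM and enterocyte-like cells with 11.5 CPM, while stem-like cells had 2.40 CPM (1.04–4.73, 8 UMIs). The log2 difference over stem-like cells was 4.71 (3.68–5.96) in tuft-like, 3.22 (2.19–4.46) in goblet-like and 2.26 (1.22–3.51) in enterocyte-like cells. Large intestinal stem-like cells were low too, at 1.42 CPM (0.825–2.27) and colonocyte-like cells at 30.2 CPM, a log2 difference of 4.41 (3.71–5.21). That stem-like class was cluster 1 alone, and unnamed cells were outside the comparison. Within enterocyte-like cells of the small intestine, the cluster led by Clca4a, Plb1 and Tmigd1 had 32.7 CPM and the cluster led by Reg1 and Fabp1 had 6.53 CPM.

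Bmp3, a divergent member of the family that is known to oppose other BMPs, was read mainly in absorptive, cycling-like and stem-like epithelium among the named classes. In the small intestine it stood at 56.4 CPM in colonocyte-like, 39.1 CPM in enterocyte-like, 36.2 CPM in cycling-like and 35.4 CPM in stem-like cells. Goblet-like and Paneth-like cells had 3.44 and 2.63 CPM, a log2 difference of -3.36 (-4.17 to -2.64) and -3.75 (-4.45 to -3.11) from stem-like cells. Enterocyte-like and stem-like cells were close, with a difference of 0.14 (-0.17 to 0.46). Large intestinal colonocyte-like cells had 29.3 CPM, stem-like cells 18.7 CPM and goblet-like cells 2.57 CPM. The low secretory level thus held in both libraries for goblet-like cells. Bmp2 and Bmp3 took different colonocyte-like clusters: cluster 9 had 38.2 CPM of Bmp2 and 6.50 CPM of Bmp3, and cluster 10 had 20.4 CPM of Bmp2 and 56.9 CPM of Bmp3.

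Bmp7, a ligand also made by epithelia of other organs, was low and mixed. Small intestinal smooth muscle or pericyte-like cells had 22.4 CPM from 9 UMIs and T, NK or innate lymphoid-like cells 16.2 CPM from 4. Stem-like cells had 15.3 CPM (51 UMIs), goblet-like cells 14.5 CPM (76 UMIs) and Paneth-like cells, the granule-bearing cells of the crypt base, 10.5 CPM (96 UMIs). Enterocyte-like cells had 0.625 CPM, which was below stem-like cells by a log2 of -4.61 (-6.30 to -3.30). Large intestinal stem-like cells had 2.41 CPM and colonocyte-like cells 0 UMIs. Goblet-like clusters of the small intestine differed for both Bmp2 and Bmp7: the cluster led by Ido1, Zg16 and Fcgbp had 40.6 CPM of Bmp2 and 2.77 CPM of Bmp7, and the cluster led by Retnlb and Agr2 had 17.6 CPM of each. The log2 difference was 1.21 (0.64–1.77) for Bmp2 and -2.66 (-4.98 to -1.06) for Bmp7. Among Paneth-like cells, the 58 cells led by Pnmal2 had 34.8 CPM of Bmp7 and those led by defensins 8.99 CPM. The 58 cells were weakly named, with no gene of the Paneth list among their 10 leading genes. Their mean log2 ratio over that list was 1.92, against 5.18 in the defensin-led cells, and their median was 8256.5 UMIs against 47066. Among the named large intestinal classes, levels above 10 CPM were in fibroblast-like cells (14.8 CPM, 34 UMIs) and in the T, NK or innate lymphoid-like class (32.5 CPM from 10 UMIs).

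Grem1, the antagonist gremlin 1, was read almost only in stromal classes. Small intestinal fibroblast-like cells had 916 CPM (799–1045, 220 UMIs), smooth muscle or pericyte-like cells 159 CPM (123–204, 64 UMIs), and macrophage-like cells 1.82 CPM. Grem1 levels in the large intestine were 419 CPM (393–446, 961 UMIs) in fibroblast-like cells and 5.51 CPM (4 UMIs) in smooth muscle or pericyte-like cells, with at most 0.811 CPM elsewhere. Chrdl1, chordin-like 1, was thin in both libraries. It had 29.1 CPM (7 UMIs) in small intestinal fibroblast-like cells, and 17.9 CPM (13 UMIs) and 12.6 CPM (29 UMIs) in large intestinal smooth muscle or pericyte-like and fibroblast-like cells. Nog, noggin, had 1 UMI in the small and 12 in the large intestinal library, 6 of them in enteroendocrine-like cells (7.74 CPM), the hormone-making cells.

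Bmpr1a, a type I receptor for BMP2 and BMP4, was the broadest member. In the small intestine it ranged from 112 CPM in smooth muscle or pericyte-like cells and 99.9 CPM in fibroblast-like cells through 52.2 CPM in stem-like cells to 9.0 CPM (7.16–11.2, 82 UMIs) in Paneth-like cells, the lowest epithelial class. Endothelial and blood cell classes had at most 8.11 CPM there. Paneth-like cells were lower than stem-like cells by a log2 of -2.54 (-2.93 to -2.15), while enterocyte-like and goblet-like cells lay at 35.0 and 35.7 CPM. The large intestine had 124 and 121 CPM in the 2 stromal classes, 72.3 CPM in enteroendocrine-like cells and 30.2 to 46.6 CPM in the other epithelial classes. Endothelial classes were low: lymphatic endothelial-like cells had 1.81 CPM in the small intestine and 0 UMIs in the large.

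**Figure D1:**
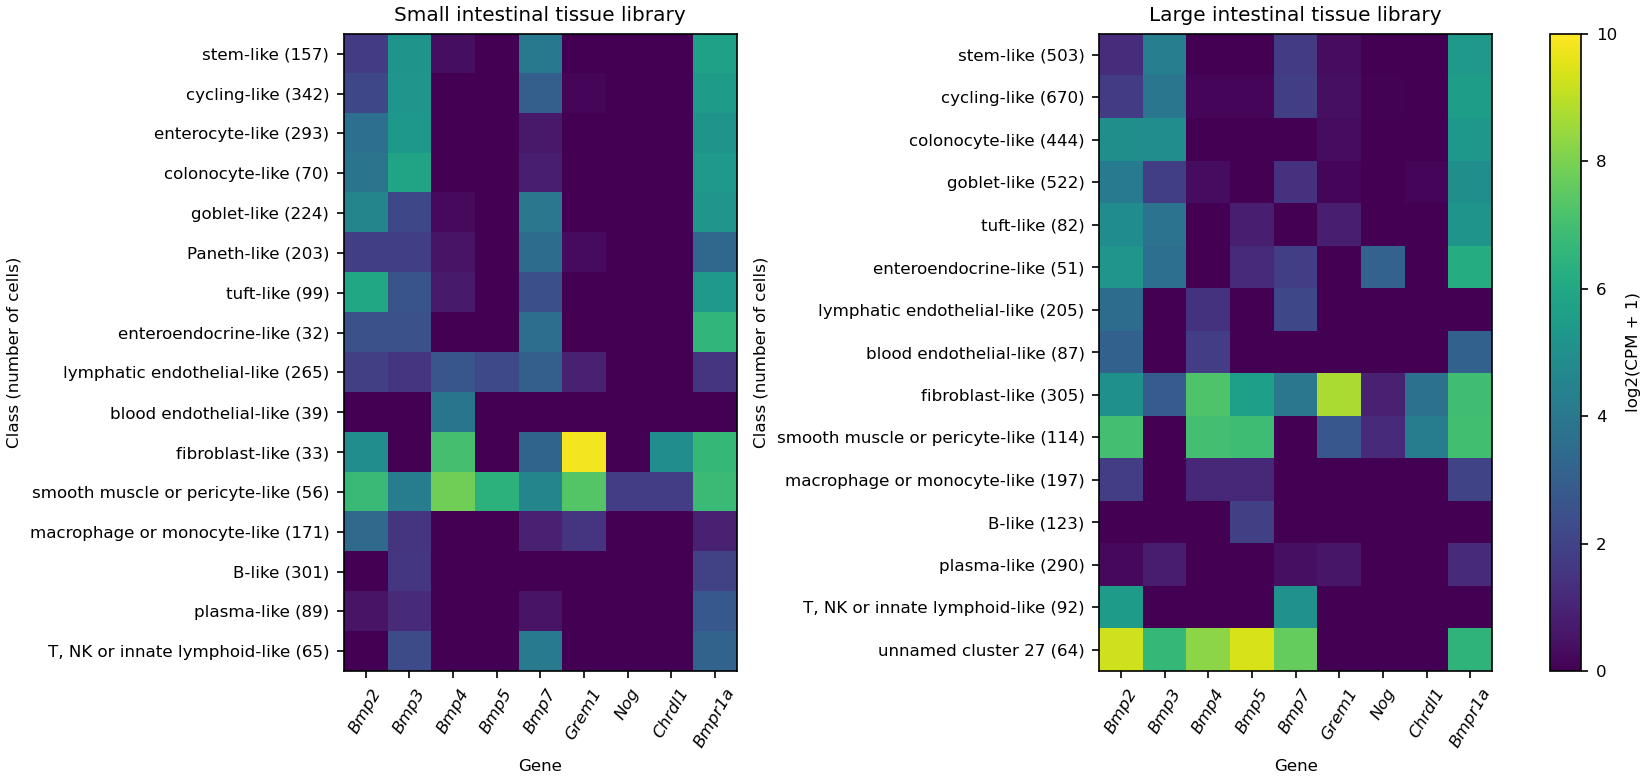
Heat maps of log2(CPM + 1) for the 9 genes (columns) in each named class of at least 20 cells (rows) in the small and large intestinal libraries, with unnamed large intestinal cluster 27 added. Bmp4, Bmp5 and Grem1 are highest in stromal rows, though not in all of them (small intestinal fibroblast-like cells have 0 Bmp5 and cluster 27 has 0 Grem1). Bmp3 is read in absorptive and stem-like rows and is highest in cluster 27 (99.7 CPM), and Bmpr1a is read in most rows outside endothelium and blood cells.

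A gene was called for a leading class, among named classes only, where that class had at least 20 UMIs and at least 2 times the CPM of the next class. In the small intestine 2 of the 9 members were called, where 23.6% of 9783 tested genes were called in some class. They were Bmp5 in smooth muscle or pericyte-like cells (log2 4.55 over the next class, 3.06–6.51) and Grem1 in fibroblast-like cells (2.52, 2.11–2.95), and these classes held 1.55% and 1.19% of the tested genes. Under 4 of the 10 other settings, small intestinal muscle cells formed no class of their own, and fibroblast-like cells then led Bmp5 and were called for Bmp4 as well (log2 2.65 to 3.22). In the large intestine 3 members were called, against 24.7% of 10844 genes: Grem1 in fibroblast-like cells (6.25, 4.89–8.13), and Bmp2 (1.48, 0.66–2.41) and Bmp5 (1.29, 0.87–1.71) in smooth muscle or pericyte-like cells. The latter calls were lost, and both directions turned (log2 -0.08 for Bmp2 and -0.40 for Bmp5), when the 64 cells of cluster 27 described next were counted as fibroblast-like. Grem1 was led by fibroblast-like cells and called in 10 of 10 small and 11 of 11 large intestinal settings, with a log2 of 2.52 to 7.34 and 3.39 to 10.03.

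The large intestinal stroma fell into clusters with different sets of ligands and antagonists, which are given as a description, since clusters were cut from the same cells. Cluster 27, 64 cells led by Cxcl14, Nrg1, Bmp5, Tnc and Emid1, held 324 of the 530 Bmp5 UMIs of the whole library and 299 of its 1414 Bmp2 UMIs. It stayed unnamed under a rule whose conditions had to hold together. First, no gene of the fibroblast class list was among its 10 leading genes, although Nrg1, Procr and Wnt5a of a narrower list for villus base fibroblasts or telocytes were. Second, its cells' median of 6970 UMIs fell below a limit set from the library median, 21761. Clusters that met the first condition alone, such as 14 (median 7364), or the second alone, such as 19 (6107), were named. It carried Pdgfra at 894 CPM and Foxl1 at 56.1 CPM. Its levels were 673 CPM (602–751) for Bmp5, 621 CPM (553–696) for Bmp2, 305 CPM (258–359) for Bmp4, 199 CPM (162–244) for Bmp7 and 99.7 CPM (73.5–132) for Bmp3. All 5 ligands were thus read there, while Grem1, Nog and Chrdl1 had 0 UMIs. Its Bmpr1a level was 89.4 CPM from 43 UMIs.

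Fibroblast-like cluster 17, 112 cells led by Edil3, Ccn2 and Eln, had Bmp4 at 319 CPM (282–359), Bmp5 at 126 CPM (103–152) and Grem1 at 213 CPM from 183 UMIs. Cluster 27 exceeded it by a log2 of 3.85 (3.35–4.38) for Bmp2 and 2.42 (2.10–2.75) for Bmp5, and the Bmp4 difference was -0.06 (-0.36 to 0.23). Fibroblast-like cluster 14, 193 cells led by Pcolce2, Pi16 and C3, had the highest large intestinal Grem1, 542 CPM (505–582, 778 UMIs). There Bmp4 was 49.5 CPM and Bmp5 2.09 CPM from 3 UMIs, and all 29 fibroblast-like Chrdl1 UMIs fell in it. Smooth muscle or pericyte-like cluster 19, 95 cells led by Actg2, Myh11 and Hhip, had Bmp2, Bmp4 and Bmp5 at 128, 146 and 135 CPM and 4 Grem1 UMIs, all in 1 cell. The pericyte-like cluster 29, 19 cells led by Rgs5, had Bmp2 in 6 cells and 0 Bmp4, Bmp5 and Grem1 UMIs. Grem1 and Bmp5 thus ran in opposite order over clusters 27, 17 and 14, while cluster 19 had Bmp5 with almost no Grem1 and cluster 29 neither. The median UMIs per cell were 6970, 7766, 7364, 6107 and 4578 in clusters 27, 17, 14, 19 and 29.

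Single cells held several ligands together. In cluster 27, 54 of 64 cells had both Bmp2 and Bmp5 UMIs, 48 both Bmp4 and Bmp5, and 42 both Bmp5 and Bmp7. Bmp4 and Grem1 were read together in 35 of 112 cells of cluster 17, 26 of 193 of cluster 14 and 0 of 95 of cluster 19. After thinning each cell to 2000 UMIs, Bmp5 was found in 78.1% of cluster 27 cells, Bmp2 in 60.9%, Bmp4 in 46.9% and Bmp7 in 37.5%. Before thinning, 60, 57, 52 and 45 of the 64 cells had a UMI. B-like cells, which should lack these genes, gave the level of free RNA: of 123 cells with a median of 2644 UMIs, 1 had Bmp5 and none Bmp2, Bmp4, Bmp7 or Grem1, and 0 of 107 thinned cells allows a share with a UMI of up to 2.80%. For Grem1 in cluster 27, 0 of 64 thinned cells allows a share with a UMI of up to 4.69%, which limits detection at this depth and not expression.

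The small intestine had 2 stromal clusters. Cluster 20, the 33 fibroblast-like cells led by C3, Igfbp6 and Pcolce2, had Grem1 in 23 cells, and in 59.4% of its cells after thinning to 2000 UMIs. The B-like cells of that library, 301 with a median of 2802 UMIs, had no Grem1, Bmp2, Bmp4 or Bmp5 UMI, against a median of 7051 UMIs in cluster 20, and 0 of 273 thinned B-like cells allows a share with a UMI of up to 1.10%. Bmp4 and Grem1 were together in 13 of the 33 cells. Cluster 18, the smooth muscle or pericyte-like cells, had Bmp4 in 33, Bmp2 in 25 and Bmp5 in 19 of 56 cells, but its 64 Grem1 UMIs came from 10 cells, with 23 in 1 of them. This cluster carried Pdgfra at 486 CPM beside Acta2 at 4756 CPM, and the part of mixed cells in its ligand levels was not tested.

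**Figure D2:**
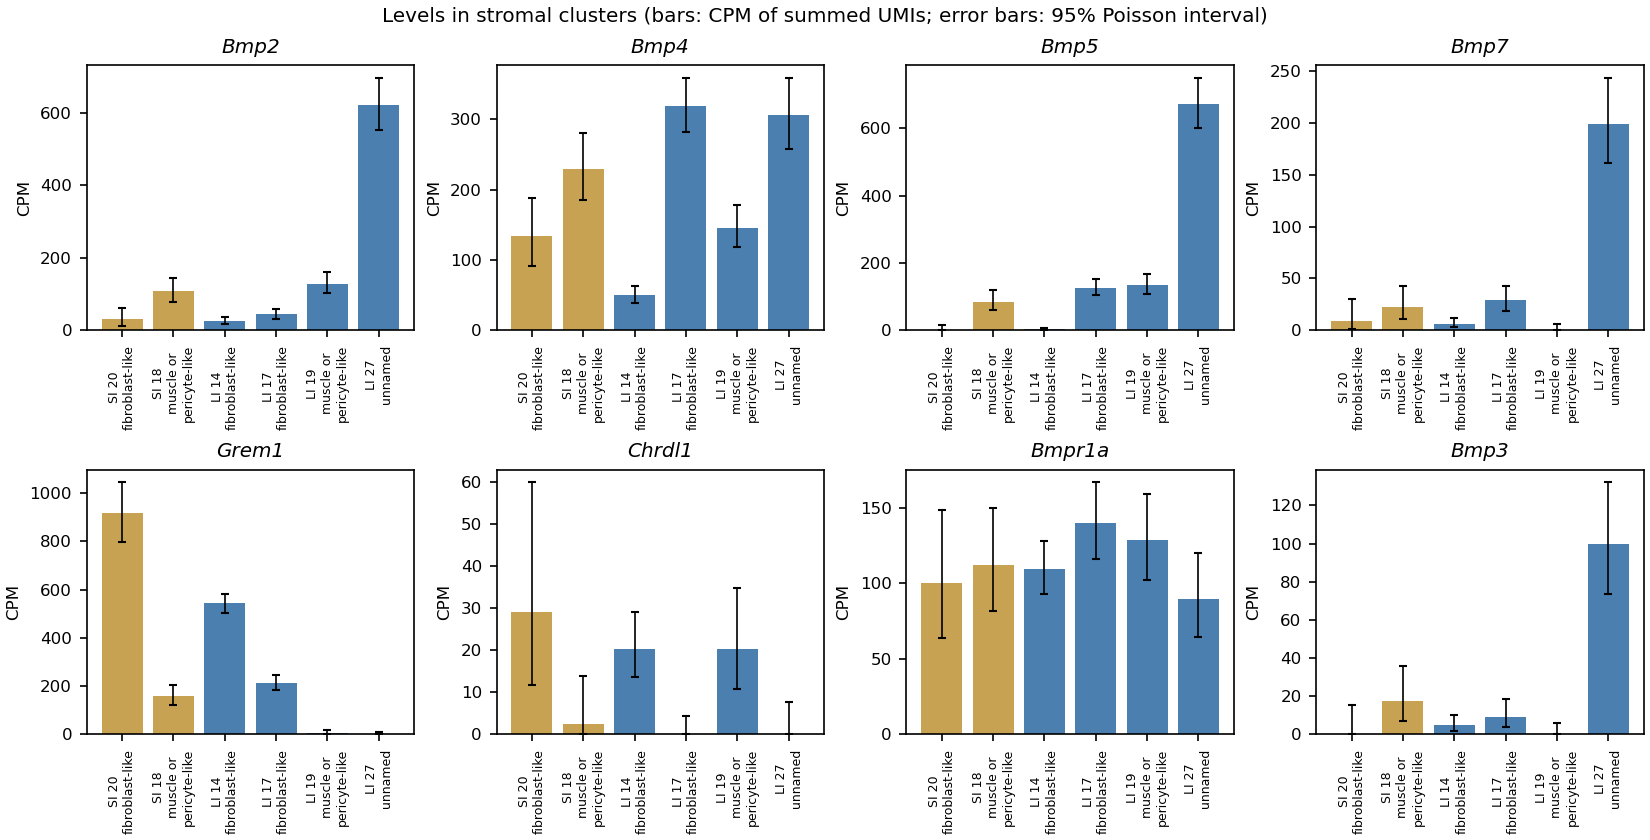
Bars give CPM with 95% Poisson intervals for 8 genes in 6 stromal clusters of over 20 cells, 2 of the small intestine (20 and 18) and 4 of the large (14, 17, 19 and 27). Cluster 27 stands highest for Bmp2, Bmp5 and Bmp7 and at 0 for Grem1, and clusters 20 and 14 are the highest for Grem1 within their libraries.

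Large intestinal fibroblast-like cells were also clustered alone. The 119 cells that matched a lamina propria list had Bmp4 at 317 CPM, Bmp5 at 125 CPM and Grem1 at 210 CPM, with 0 Chrdl1 UMIs. The 115 cells that matched a list of CD81-high cells, which lie by textbook account below the crypts, had Grem1 at 971 CPM, Chrdl1 at 33.8 CPM, Bmp4 at 65.1 CPM and Bmp5 at 2.50 CPM. Another 9 cells matched the same list and had 0 UMIs of both Grem1 and Chrdl1. A further 62 cells, unnamed, had Grem1 at 5.39 CPM and Bmp4 at 28.7 CPM. Grem1 and Chrdl1 were thus highest in the same subcluster of 115 cells.

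Beyond the members, 44 listed pathway genes were read by role. In the small intestinal classes, 0 of 3 measured other ligands, 0 of 4 other antagonists, 2 of 6 receptors, 1 of 4 SMADs and 2 of 4 targets were called for a leading class, beside 23.6% of all genes. The large intestinal counts were 2 of 3, 3 of 8, 5 of 8, 2 of 4 and 3 of 4, beside 24.7% of all genes. The ligands called there, Bmp1 (142 CPM), a protease despite its name, and Bmp6 (75.9 CPM), were both led by fibroblast-like cells. Smad1 was led by lymphatic endothelial-like cells in both libraries, with 441 and 287 CPM. Acvrl1, an endothelial type I receptor, was led by blood endothelial-like cells, with 282 CPM in the small intestine. Id1, the target, was 827 CPM in colonocyte-like and 174 CPM in stem-like cells of the large intestine, a log2 difference of 2.25 (2.18–2.32), in the same classes where Bmp2 differed by 4.41. Small intestinal Id1 was 120 CPM in enterocyte-like and 96.6 CPM in stem-like cells (0.31, 0.13–0.50). Paneth-like cells, lowest among epithelial classes for Bmpr1a, had 7.68 CPM of Id1. Other classes did not share these orders. Small intestinal cycling-like cells had 158 CPM of Id1 beside 3.48 CPM of Bmp2. Blood endothelial-like cells led Id1 in both libraries, with 523 CPM in small and 910 CPM in large intestine. They had 0 and 3 UMIs of Bmp2, and likewise 0 and 3 of Bmpr1a.

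In the organoids, which hold epithelium alone, only 4 members, Bmp2, Bmp3, Bmp7 and Bmpr1a, had enough UMIs to compare. Bmp4 had 1 UMI in the control and 0 in the coculture, and Bmp5, Grem1, Nog and Chrdl1 had 0 in both, where 3 counts would be 0.0693 and 0.0309 CPM. Of the 4 measured members, 0 differed by 2-fold between the libraries, against 2.79% of 13076 genes higher and 4.2% lower in coculture. The median gene was shifted by -0.11 on the log2 scale, which is not removed from the values here.

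Bmp2 stood at 8.48 CPM (367 UMIs) in control and 4.91 CPM (476 UMIs) in cocultured organoids, a log2 difference of -0.79 (-0.99 to -0.59), and it had the largest difference of the 4. Bmpr1a was 68.3 and 56.0 CPM (-0.29, -0.35 to -0.22), Bmp3 18.3 and 17 CPM (-0.11, -0.23 to 0.02) and Bmp7 5.06 and 5.84 CPM (0.21, -0.02 to 0.44). With cells thinned to 10000 UMIs, Bmp2 was found in 10.9% of 450 control and 4.68% of 919 coculture cells. Unthinned, the shares were 27.3% and 26.1% at medians of 73663.5 and 86295 UMIs. The organoids held no class that should lack Bmp2, so free RNA was not measured there. The makeup of the libraries differed beside this: regenerative epithelial-like cells, led by Ly6d, Sprr1a and Clu, were 82 control cells (15.2%) and 37 coculture cells (3.60%).

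Within classes, Bmp2 was highest in the regenerative epithelial-like cells, at 28.8 CPM in control and 22.3 CPM in cocultured organoids (log2 -0.37, -0.80 to 0.05). They held 177 of the 367 control and 65 of the 476 coculture Bmp2 UMIs. In enterocyte-like cells Bmp2 was 15.4 CPM (54 UMIs, 47 cells) and 6.45 CPM (93 UMIs, 173 cells), a difference of -1.25 (-1.75 to -0.74). In stem-like cells the values were 2.78 and 2.68 CPM (-0.05). Cycling-like and Paneth-like cells had the other sign, with 0.51 (-0.20 to 1.28) and 0.77 (-0.31 to 1.97), and both intervals included 0. Unnamed cells had -0.37 (-0.74 to 0.02). Of the class intervals, only the enterocyte-like one lay below 0, and it ran to both sides of 2-fold. The enterocyte-like class pooled clusters 5 and 9, with 32 and 15 control and 97 and 76 coculture cells. The part of class and cluster makeup in the library difference was not tested. Bmp3 differed most in Paneth-like cells, with 18.2 CPM (49 UMIs, 22 cells) in control and 2.84 CPM (13 UMIs, 55 cells) in cocultured organoids, a log2 of -2.68 (-3.68 to -1.77). In the same cells Bmp7 was 16.3 and 15.7 CPM and Bmpr1a 63.0 and 34.9 CPM (-0.85). Bmp7 was thus read in organoid Paneth-like cells of both libraries at like levels. This class was 1 cluster that carried goblet markers as well. Its mean log2 marker ratio over the other cells was 8.67 for the Paneth list and 6.89 for the goblet list. The part of goblet cells in its values was not tested.

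Of the 44 listed pathway genes, 23 were measured in the organoids, with 4 past 2-fold lower in coculture and 0 higher, beside 4.2% and 2.79% of all genes. The median of the 23 was -0.30, beside -0.11 over all genes. The 4 were Nbl1, an antagonist of the DAN family (451 and 178 UMIs, log2 -2.50), Bmp8a (-1.50), Bmp8b (-1.55) and Crim1 (-1.12). Bmp8a and Bmp8b are near-identical neighbours whose reads cannot be apportioned with certainty. Of the 4 targets, 0 passed 2-fold: the coculture difference was 0.62 (0.50–0.74) for Id2, 0.59 (0.51–0.67) for Id3, 0.07 for Id1 and -0.12 for Id4. In enterocyte-like cells Id1, Id2 and Id3 were higher in coculture by 1.05, 1.42 and 0.80. In regenerative epithelial-like cells Id1 differed by -1.71 (-2.33 to -1.15), Id2 by 0.58 and Id3 by 0.15.

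**Figure D3:**
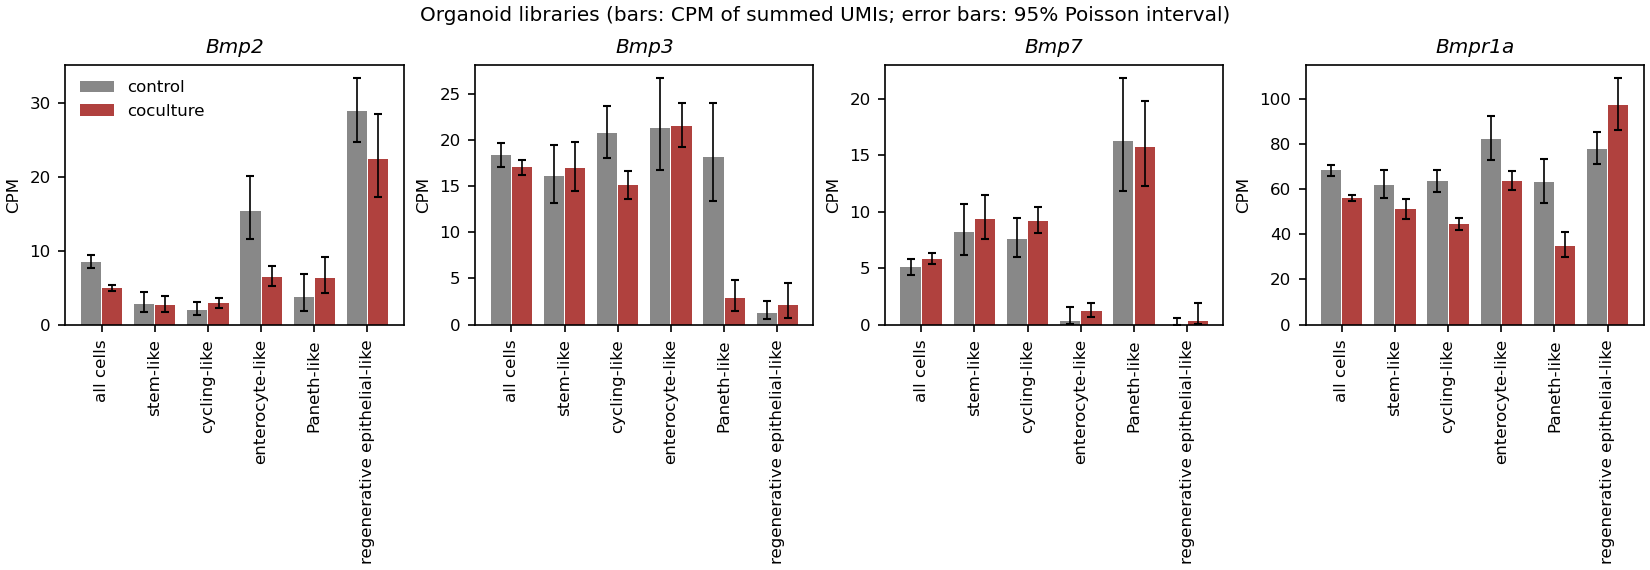
Bars give CPM with 95% Poisson intervals of Bmp2, Bmp3, Bmp7 and Bmpr1a in control and coculture organoids, over all cells and in 5 classes, with 1 library per condition. Bmp2 is lower in coculture enterocyte-like cells and Bmp3 in coculture Paneth-like cells.

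In the Visium sections, spots were put in a muscle, crypt or surface zone by gene lists that held no member. A spot covers several cells, so fewer cells of a type and less RNA per cell cannot be told apart. Genes outside the lists mostly followed the zones. In small intestinal section 1, the muscle gene Lmod1 was 219, 18.9 and 12.2 CPM in muscle, crypt and surface spots, and the proliferation gene Stmn1 101, 272 and 38.4 CPM. Clca4b was 179, 222 and 2403 CPM there, and it was highest at the surface in every section. Apoc3 was highest at the surface in the small intestine only. In the large intestine it was highest in muscle, at 0.228 and 0.355 CPM. Between 378 and 477 spots per section lay within 5 percentile points of a zone limit. A gene was called for a zone at 2-fold over both other zones in both sections. In the small intestine 6 of 9 members were called, where 28.7% of 13898 genes were called in some zone. In the large intestine 5 of 9 were called, against 20.3% of 14085.

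Bmp2 was highest at the surface in both intestines. Its small intestinal levels in sections 1 and 2 were 121 and 126 CPM at the surface, 23.2 and 30.7 CPM in crypt spots and 19.3 and 18.7 CPM in muscle spots. Surface spots exceeded the next zone by a log2 of 2.39 and 2.04. The large intestinal surface had 172 and 167 CPM, muscle 36.1 and 39.4 CPM and crypts 15.6 and 14.8 CPM, a difference of 2.26 and 2.09 over muscle. Sections did not overlap between the surface and the other zones in either tissue. Surface was the called zone of 6.98% and 5.08% of the tested genes in the 2 tissues.

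Grem1 was highest in muscle spots. Its small intestinal levels were 398 and 422 CPM in muscle, 43.6 and 75.1 CPM in crypt and 18 and 24.9 CPM in surface spots. In the large intestine the same order held at 101 and 94.3, 19.7 and 15.5, and 5.50 and 3.20 CPM. Muscle exceeded crypt by 3.19 and 2.49 in the small and by 2.35 and 2.61 in the large intestine. Nog, nearly unread in the sorted cells, was read in muscle spots, at 10.2 and 10.8 CPM (45 and 67 UMIs) in small and 4.34 and 5.14 CPM (19 and 29 UMIs) in large intestinal sections. Its crypt and surface levels were all at most 1.55 CPM. Chrdl1 was 19.3 and 18.7 CPM in small and 35.2 and 25.4 CPM in large intestinal muscle, and at most 5.30 CPM in any crypt or surface zone. All 3 antagonists were called for muscle in both tissues, where muscle was the called zone of 16.4% and 12.9% of genes.

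Bmp4 and Bmp5 varied less between zones. Bmp4 was 26.3 and 25.7 CPM in small intestinal muscle, 17.2 and 14.6 CPM in crypt and 16.1 and 12.5 CPM in surface spots, and it was not called in either tissue. Large intestinal Bmp4 ran from 36.8 and 30.3 CPM in muscle to 19.6 and 19.1 CPM at the surface. Bmp5 was 10.4 and 8.37, 18.3 and 18.8, and 18.2 and 15.7 CPM in small intestinal muscle, crypt and surface spots. Large intestinal Bmp5 was highest at the surface, with 20.6 and 22.3 CPM, and was not called.

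Bmp3 and Bmp7 had different places in the 2 tissues. Bmp3 was 28.9 and 39.1 CPM in small intestinal crypt, 17.7 and 19.2 CPM in muscle and 7.65 and 5.84 CPM in surface spots. In the large intestine it was called for muscle, with 24.2 and 23.9 CPM there, 9.37 and 6.54 CPM in crypts and 5.11 and 5.02 CPM at the surface. Sorted smooth muscle or pericyte-like cells had 0 Bmp3 UMIs in the large intestine and 7 (17.4 CPM) in the small. Crypts were the called zone of 5.25% of small intestinal genes and 2.26% of large intestinal ones. Bmp7 was called for crypts in the small intestine, with 22.8 and 18.3 CPM against 10.7 and 6.92 CPM in muscle and 5.74 and 5.2 CPM at the surface. Its large intestinal levels lay between 5.03 and 10.8 CPM in all zones. Bmpr1a was 105 and 98.7 CPM in small intestinal muscle and 43.3 to 46.4 CPM in the other zones, a call at a log2 of 1.22 and 1.09, and 44.5 to 70.5 CPM across large intestinal zones, with no call.

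Between the tissues, over all spots, 2 of the 9 members passed 2-fold, both higher in the small intestine, beside 11.2% of 16185 genes higher in small and 10.6% higher in large. Grem1 was 91.1 and 113 CPM in small, and 19 and 18 CPM in large intestinal sections, a log2 difference of 2.47 (2.41–2.57, Poisson interval of the summed sections). Bmp3 was 23.6 and 20.9 CPM against 7.95 and 7.69 CPM (1.51, 1.36–1.64). Small intestinal sections had 63.4 and 73.3 CPM of Bmp2, and large intestinal ones 69.2 and 72.1 CPM, so its sections overlapped. Nog was 2.22 and 2.63 against 0.727 and 1.16 CPM (1.36, 0.95–1.78), which did not meet the call in every pair of sections. The sections are technical duplicates, so these intervals do not cover differences between mice.

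**Figure D4:**
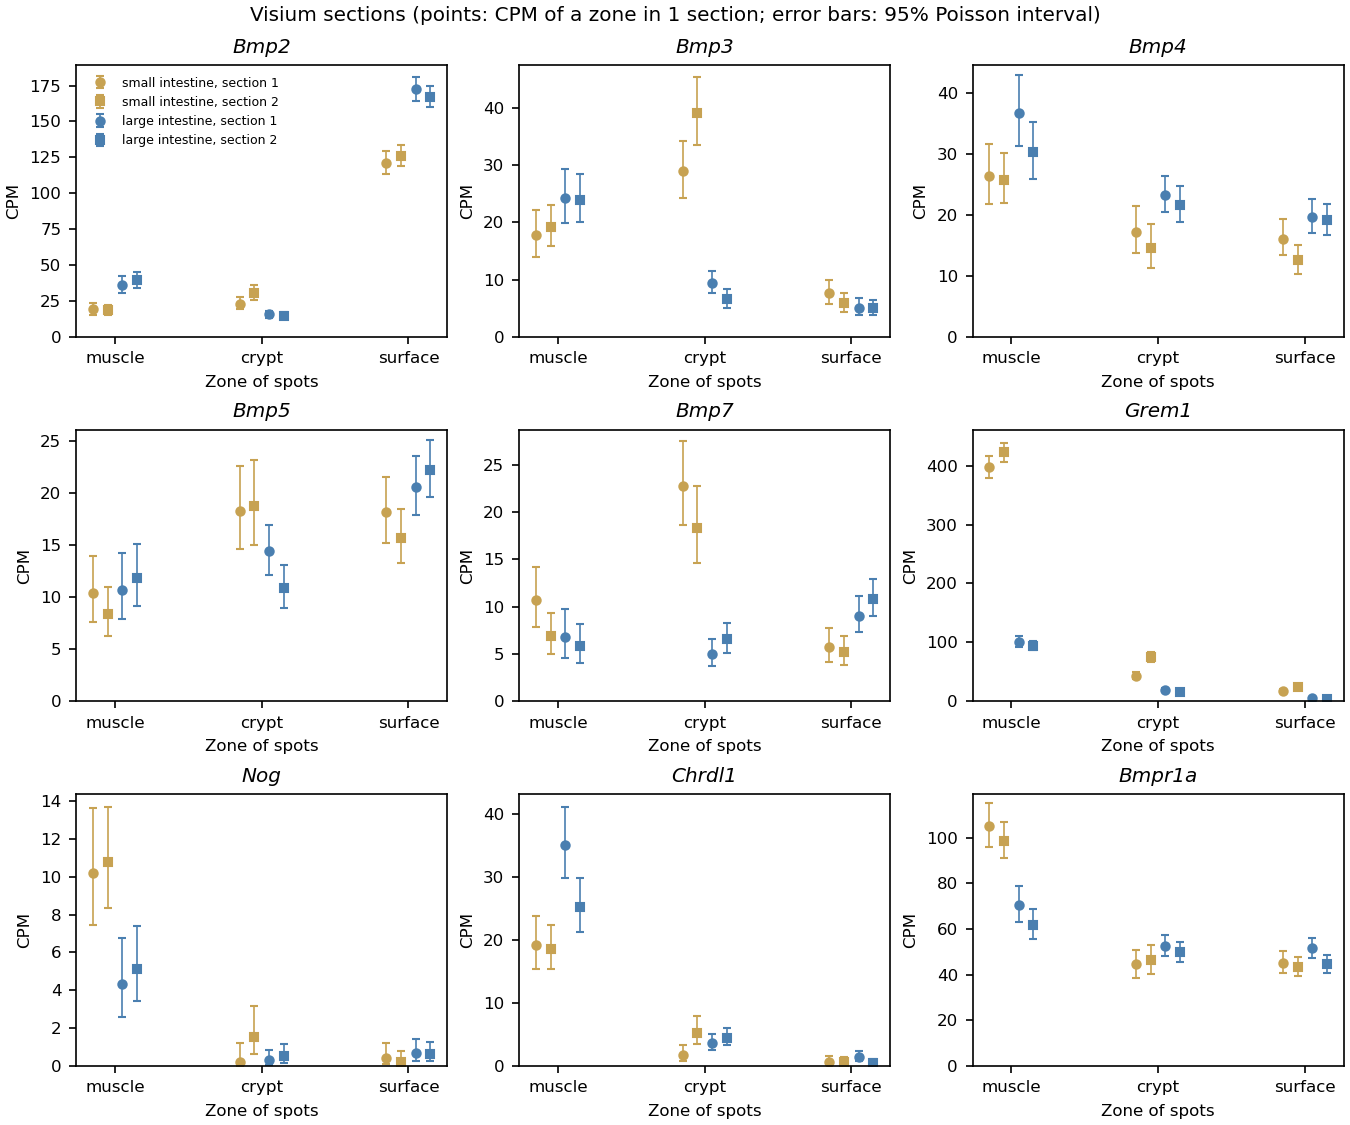
Points give CPM with 95% Poisson intervals of the 9 genes in muscle, crypt and surface zones of each of the 4 Visium sections. Bmp2 is highest at the surface and Grem1, Nog and Chrdl1 in muscle in both tissues. Sections of 1 tissue lie apart for some low or crypt values, as for small intestinal crypt Grem1 at 43.6 and 75.1 CPM.

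Of the other listed antagonists, 12 were measured in each tissue, and 5 were called in the small and 7 in the large intestine, all for muscle, among them Chrdl2 in the small. Muscle was the called zone of 16.4% and 12.9% of all genes. The rest had no call, among them Nbl1 in the small intestine, whose surface level was above muscle by a log2 of 0.01 and 0.03. Of the other ligands, 3 of 5 measured were called in the small intestine (Bmp8a and Bmp8b for the surface, Bmp1 for muscle) and 4 of 4 in the large (Bmp8b for the surface, the others for muscle). Of the receptors, 3 of 9 were called in the small and 2 of 9 in the large intestine, all for muscle as well. On the target side, Id1 went from 67.4 and 67.6 CPM in small intestinal muscle through 131 and 148 CPM in crypts to 270 and 297 CPM at the surface. Large intestinal Id1 was 655 and 640 CPM at the surface, 381 and 384 CPM in muscle and 239 and 241 CPM in crypts, with no call. The targets did not share a zone: Id4 was highest in muscle in both tissues, with 82.2 and 75.8 CPM in small and 134 and 104 CPM in large intestinal sections, and was called in the large. Id2 was also highest in muscle in both, with no call. Id3 was called for the surface in the small intestine, by a log2 of 1.24 and 1.32 over the next zone, as was Id1. Neither was called in the large. Of the 4 targets, 2 were thus called in the small and 1 in the large intestine, beside 28.7% and 20.3% of all genes in some zone. Smad7, an inhibitory SMAD and itself a known target, was also led by the surface in both tissues, with 123 and 125 CPM in small and 85.3 and 89.8 CPM in large intestinal sections. Of 6 SMADs, 2 were called in the small intestine, Smad7 for the surface and Smad9 for muscle (log2 1.34 and 1.54). In the large intestine 1 was called, Smad7.

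For each member, the 3 genes with the most similar pattern were found over 30 classes of the 2 tissue libraries, by Pearson's r of log2(CPM + 1) among 11130 genes. Classes of 1 library share its depth and free RNA, so r is a description. Grem1 was closest to Lgi2, Abca8a and Fgf2 (all 0.98), Bmp4 to Hmcn2 (0.97), and Chrdl1 to Vit (0.98), Srpx (0.97) and Mfap5 (0.96). Bmp5 was closest to Foxf2 (0.92), a transcription factor of intestinal mesenchyme, then Cys1 and Myocd (both 0.90). Bmp3 was closest to Gstm3 (0.87), and Bmpr1a to Fat1 and Epb41l5 (both 0.90). The closest genes were looser for Bmp2, with Upp2 at 0.76, and for Bmp7, with Spry2 at 0.67. Nog had too few UMIs for a comparison.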

How the data were processed

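Single-cell and Visium libraries were deposited by the authors as matrices of raw UMI counts per gene and barcode, made with Cell Ranger 6.0.1 per the submitters' processing notes and Space Ranger 1.2.1 per the file headers, on mm10. Members and gene lists were chosen with earlier results of these data known. A cell needed 500 genes and could hold 20% mitochondrial UMIs at the most. Likely doublets were removed by Scrublet score (0.8% per 1000 cells), and the rest was clustered (scanpy 1.11.5, Leiden resolution 1, 2000 variable genes, 30 components, 15 neighbours), leaving out the members and listed pathway genes. Clusters were named from 24 marker lists. Spots with at least 500 UMIs were zoned at the 75th percentile of list scores. A call needed 2-fold and 20 UMIs in the higher group, and counts under 3 were set to 3 in ratios. Intervals were Poisson for levels and Clopper-Pearson for shares (scipy 1.17.1). Deposited UMIs ranged from 24356162 to 142501907 per library. All 9 members were named, and of the pathway list at most those highest or past 2-fold. The ratio script was tested on simulated data. Alternatives covered classes, doublets, filters, resolution, scaling, minimum counts and zone limits.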

Additional observations from a re-analysis of the deposited data

Results flagged for a closer look

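The comparisons of zones had opposite signs in the 2 tissues for 4 ligands, in every section, though several of these values could not be told from 0. The differences between tissues were not tested, and sections are technical duplicates. Values are log2 differences, small intestinal sections 1 and 2 first and large intestinal sections 1 and 2 after them. For Bmp2, muscle over crypt was -0.26 and -0.72 in the small intestine and 1.21 and 1.41 in the large, and the counting interval of the first value, -0.69 to 0.16, included 0. For Bmp3, muscle over crypt was -0.71 and -1.03 against 1.37 and 1.87. Bmp5, crypt over surface, was 0.010 and 0.26 against -0.52 and -1.03, with small intestinal intervals of -0.40 to 0.41 and -0.14 to 0.65, which both included 0. Bmp7, muscle over surface, was 0.90 and 0.41 against -0.40 and -0.89, where the intervals of small intestinal section 2 (-0.21 to 1.03) and large intestinal section 1 (-1.05 to 0.21) included 0. For Bmp7, crypt over surface was 1.99 and 1.82 in the small and -0.85 and -0.73 in the large intestine.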

How the results depend on the processing

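The count of members called for a leading class was 2 in the small intestine and 1 with a minimum of 100 UMIs. It was 3 in 7 of 10 settings: Bmp4 was added under the per-cell marker gate, without doublet removal, with the strict and loose cell filters and at resolution 0.5, Bmp3 at resolution 2 and Chrdl1 with no minimum. In the large intestine it was 3, and 1 with the loose cell filter (300 genes, 40% mitochondrial UMIs), with resolution 0.5, with a minimum of 100 UMIs, and with cluster 27 counted as fibroblast-like, the last chosen after seeing the data. It was 2 with the mean CPM of single cells, where Bmp2 was lost, and 4 with the strict filter (Bmp4 added), at resolution 2 (Bmp3) and with no minimum (Bmp7). Under the gate Bmp7 was called and Bmp2 was not. Large intestinal Bmp5 in smooth muscle or pericyte-like cells over the next class turned to -1.82 under the per-cell marker gate, -0.67 with the loose filter, -0.40 at resolution 0.5 and -0.40 with cluster 27 moved. Bmp2 turned to -0.34, -0.084 and -0.082 under the last 3. Counting cluster 27 as fibroblast-like changes these by construction; for the others the cause was not tested. The small intestine had no smooth muscle or pericyte-like class under the gate, without doublet removal, with the loose filter and at resolution 0.5, so ratios of that class have no value there. With a section left out, calls were 6 to 7 in the small and 4 to 5 in the large intestine, and 2 to 3 between tissues. The organoid count was 0 under every alternative run. Over all values, 332 stayed within their spread, 69 moved beyond it and 7 turned. No paired analysis was possible because the results come from no test and the numbers only count technical duplicates. Nog had 1 and 12 and Chrdl1 8 and 44 UMIs in the small and large intestinal cell libraries, too few to rank most classes. Mixed cells in small intestinal cluster 18 were not tested.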
